A study of Bos grunniens and Bos grunniens x Bos taurus with 12 samples.

Results

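Some genes of yak testis were translated at 6 months of age at less than 1% of their level at 4 years. Of these, 38 were still translated in the testis of cattle–yak, the sterile male hybrid of cattle and yak. They were chosen on the deposited counts, divided by the library total and expressed per 1000000 counts (CPM). A gene of adult onset had a mean of at least 20 CPM over the 3 libraries of yak of 4 years and stayed below 1% of that mean in each library of yak of 6 months. Onset thus means a low level at 6 months and not absence, as TUBA3D held 181, 644 and 154 counts there. A gene of adult onset counted as still translated when each of the 3 cattle–yak libraries reached at least 10% of its 4-year mean. It counted as lost when each of them stayed below 1% of that mean. Of 20965 genes, 7489 reached 20 CPM at 4 years and 575 of these were of adult onset. The 38 genes still translated made up 6.61% of the 575, while 286 genes (49.7%) were lost and 251 (43.7%) lay between the limits.

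The measurements were Ribo-seq, in which pieces of mRNA held by ribosomes and so spared by a nuclease are sequenced, on whole testis from 12 males in 4 groups of 3. The groups were yak (Bos grunniens) of 6 months, of 18 months and of 4 years, and cattle–yak of 4 years, which the methods describe as offspring of Jersey bulls and Gannan yak cows. None of the animals was treated. The labels give castration as the way of collection for all animals, whereas the methods give euthanasia for the yak of 4 years and castration for cattle–yak, and if so the way of collection and the group cannot be told apart. Reads of the hybrids, of which one genome is that of cattle, were aligned to the yak genome as well. Since whole testis was used, fewer cells of a type and less translation per cell cannot be told apart in any of the values.

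In the testis of a young male, the seminiferous cords hold Sertoli cells and spermatogonia, and spermatocytes and then spermatids are added as puberty proceeds. In meiotic prophase the chromosomes are tied at their telomeres to the nuclear envelope and are joined in pairs by the synaptonemal complex, and only after the meiotic divisions do spermatids build the acrosome, the compact chromatin and the tail of sperm. Germ cells of male cattle–yak are known to stop mainly before the spermatid stage. Genes that switch on at puberty therefore include genes of spermatocytes and spermatids as well as genes of the maturing Sertoli cells.

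The libraries held 16304058 to 52616039 counts, with a median of 17796018 in yak of 4 years and 38616961 in cattle–yak, and a count of 0 allows up to 3 counts. The 3 libraries of yak of 18 months, which the choice of genes did not use, stood apart from each other. Replicate 2 correlated with replicates 1 and 3 at 0.878 and 0.901 on log2(CPM + 1) across genes, against 0.974 between replicates 1 and 3, and genes are not independent replicates. In replicate 2 the summed level of 12 round spermatid markers was 1219 CPM, against 6.09 and 12.9 CPM in replicates 1 and 3 and 2399 to 2573 CPM at 4 years. Values at 18 months are therefore given for each library, and results that rest on them are given with and without replicate 2.

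**Figure D1:**
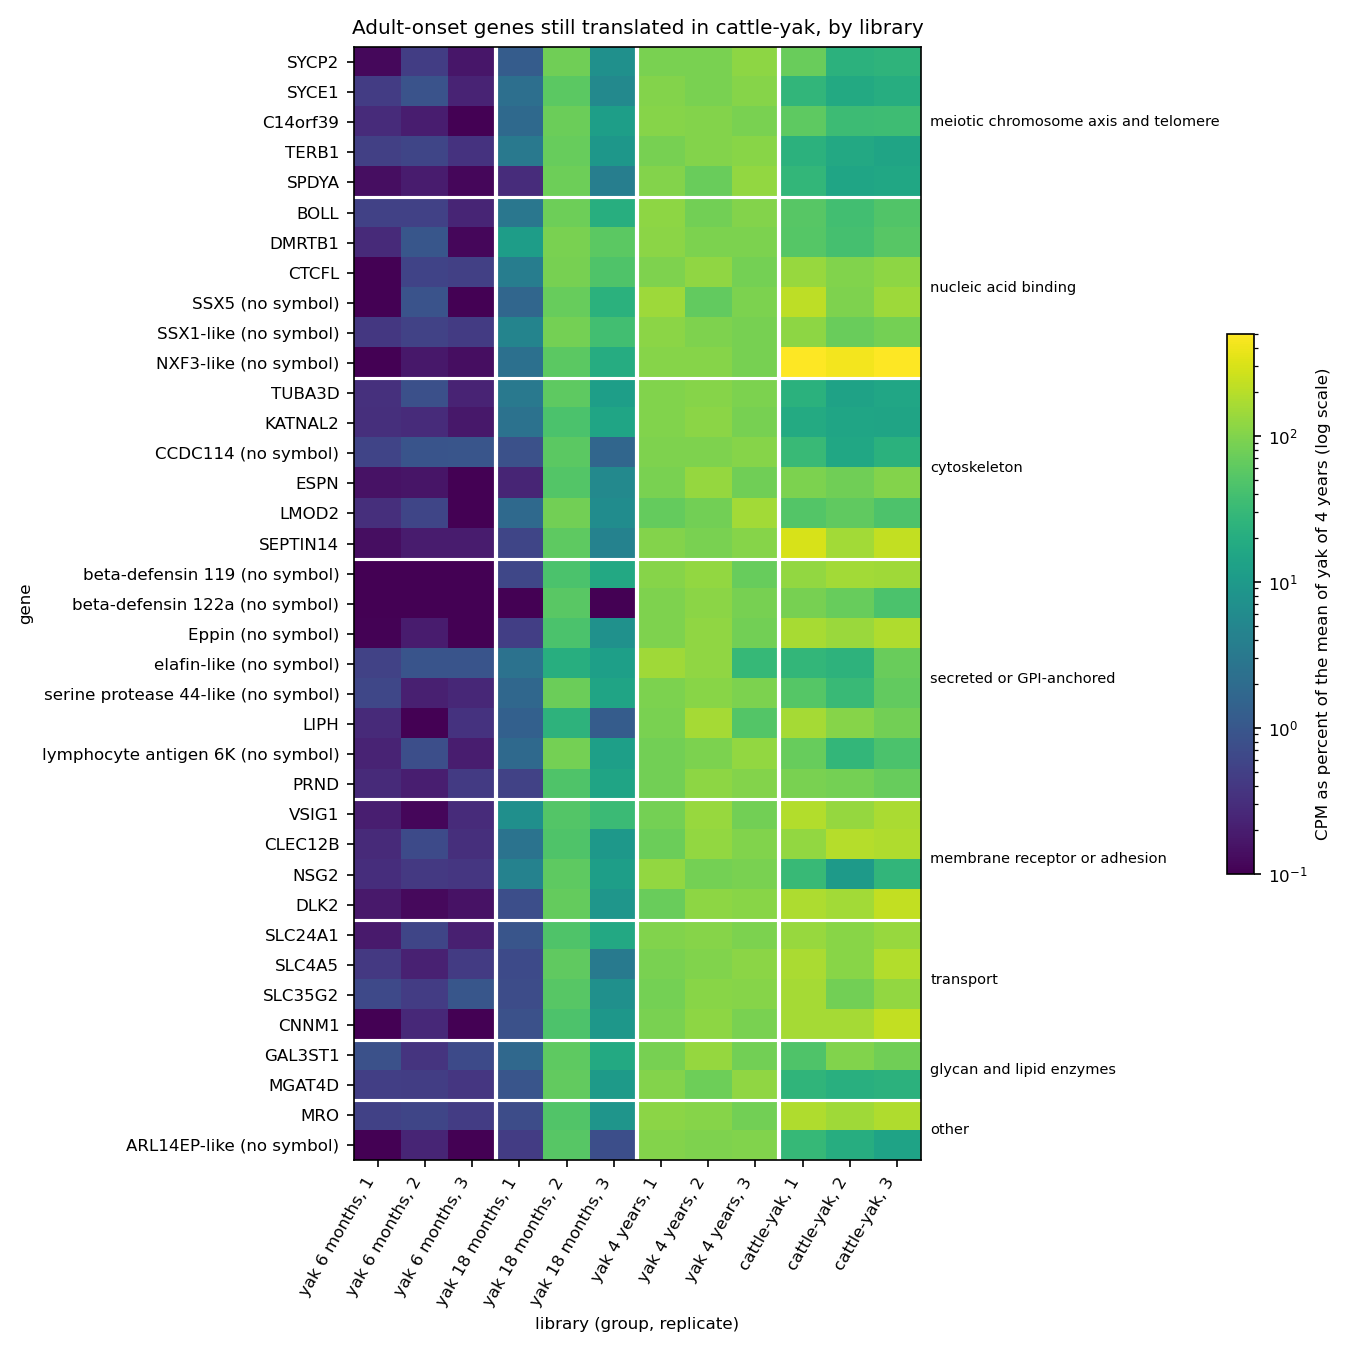
Level of 37 of the 38 genes (rows, grouped by role) in each of the 12 libraries (columns), as the CPM in percent of the gene's mean in yak of 4 years. Colour is on a log scale from 0.1 to 500, values outside it take the end colours, and genes without a symbol carry the name of their deposited description. The columns of yak of 18 months differ, with replicate 2 the highest of the 3 in 37 of the 37 genes shown.

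At 18 months, genes still translated in cattle–yak were already seen in libraries where lost genes were near 0. In replicate 3, 35 of the 38 genes were at 1% or more of their 4-year mean and 19 were at 10% or more, whereas 2 of the 286 lost genes were at 1% or more and 0 were at 10%. In replicate 1, 21 of the 38 genes and 2 of the 286 lost genes were at 1% or more. In replicate 2, all 38 and all 286 were at 10% or more. The median over the genes still translated was 1.53%, 59.5% and 9.85% of the 4-year mean in replicates 1, 2 and 3, and that over the lost genes was 0%, 56.9% and 0.148%. For the genes between the limits the medians were 0.297%, 56.9% and 0.730%. The sets already differed at 6 months, below the limit of 1%. There the medians in replicates 1 to 3 were 0.279%, 0.386% and 0.221% for the genes still translated and 0% in each for the lost genes. For the genes between the limits they were 0.130%, 0.188% and 0.106%. At 18 months, 247 of the 286 lost genes had at most 3 counts in replicate 1 and 151 had so in replicate 3. Over the 7489 genes of at least 20 CPM at 4 years the medians were 65.5%, 92.9% and 82.7%. These are counts of genes in single libraries, and a difference between the sets was not tested.

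The order of the 3 libraries was nearly the same for all 38 genes, with replicate 2 above replicate 3 and replicate 3 above replicate 1 in 37 of them. All 3 libraries of 18 months lay below all 3 of 4 years in 33 genes, against 27.4% of all genes with a count. The choice of genes used the 4-year levels, so that the count of 33 is not independent of it. Summed over the 38 genes, the level was 18.4 to 33.2 CPM at 6 months, 181, 4547 and 1153 CPM in the 3 libraries of 18 months, and 7378 to 9869 CPM at 4 years. The lost genes summed to 28.1, 23980 and 84.4 CPM at 18 months and to 39271 to 43639 CPM at 4 years. Thus replicate 3 held 1153 CPM of the 38 genes and 84.4 CPM of the 286 lost genes, although the lost genes summed to more at 4 years. Much of the 1153 CPM came from a few genes, with VSIG1 at 290, TUBA3D at 256 and beta-defensin 119 at 208 CPM.

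**Figure D2:**
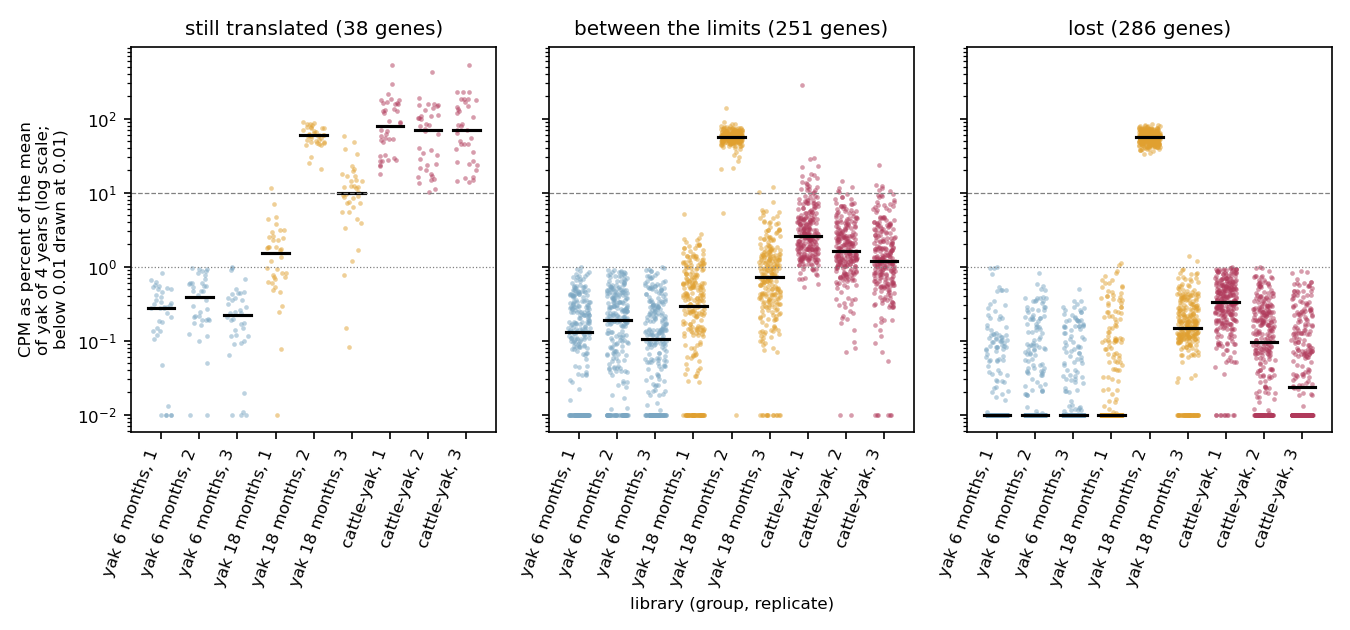
Each point is a gene, placed at its CPM in percent of its mean in yak of 4 years (log scale, values below 0.01 drawn at 0.01), for the 38 genes still translated, the 251 between the limits and the 286 lost genes in the libraries of yak of 6 and 18 months and of cattle–yak. Black lines are medians, and the dashed and dotted lines mark 10% and 1%. The levels at 6 months and in cattle–yak were used to choose the sets, while those at 18 months were not, and there the median of the first set in replicate 3 is 9.85% against 0.148% for the lost genes.

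Every library of 18 months was above every library of 6 months for 34 of the 38 genes and for 52 of the 286 lost genes, against 26.4% of the 19379 genes with a count. The 6-month levels were used to choose the genes, so that this count is not independent of the choice. Of the 38 genes, 31 passed the filter on low counts, which a gene low at 6 months passes by being high at 18 months, so the counts among them carry no weight of their own. By edgeR's quasi-likelihood test, adjusted by Benjamini-Hochberg over all genes tested, 0 of the 31 were called higher at 18 months (adjusted p 0.0533 to 0.156), while 31 had an unadjusted p below 0.05 and DESeq2 called 29. Among all genes tested edgeR called 0.0202% higher and 0.0471% lower, and DESeq2 called 7.13% higher. By edgeR 2125 of the 14874 genes tested were higher with an unadjusted p below 0.05. Without replicate 1 of 18 months edgeR called 35 of 35 (8.70% of all genes tested), and without replicate 2 it called 2 of 31 (0.226%), VSIG1 and beta-defensin 119. With all 12 libraries in one fit it called 37 of 38 (10.8%).

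Between 18 months and 4 years, edgeR called 0 of the 38 genes higher at 4 years, with an unadjusted p below 0.05 for 4, and DESeq2 called 9. Among all genes edgeR called 0% higher and 0.0371% lower, and DESeq2 called 12.9% higher. By edgeR 1915 of the 16175 genes tested were higher with an unadjusted p below 0.05. With all 12 libraries in one fit edgeR called 5 of the 38 genes (6.63% of all). Without replicate 2 of 18 months, edgeR called 36 of the 38 and 286 of the 286 lost genes higher at 4 years, among 26.1% of all genes tested. This comparison shares its 18-month libraries with the one above and its 4-year libraries with the choice of genes.

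In cattle–yak the 38 genes ranged from 0.158 to 4.99 times the yak level of the same age, with a median of 0.712. The mean in cattle–yak was at or above that of yak for 15 genes and below it for 23. All 3 cattle–yak libraries lay above all 3 yak libraries for 8 genes and below them for 17, and the groups overlapped for 13. Over all genes with a count, 29.8% lay above and 33.3% below in the same way. Since these levels chose the genes, they are a description without a test. Summed over the 38 genes the level was 8556 ± 1251 CPM in yak and 7885 ± 667 CPM in cattle–yak (SD, n = 3 each), and the ranges of 7378 to 9869 and 7117 to 8318 CPM overlapped. A few genes carried much of both sums. The means in yak and cattle–yak were 2144 and 373 CPM for TUBA3D and 1231 and 1744 CPM for beta-defensin 119. They were 878 and 1410 CPM for Eppin and 869 and 1406 CPM for VSIG1. Among the cattle–yak libraries, library 1 was the highest for 24 genes and library 2 the lowest for 28, and for 9 genes the highest library was at least 2 times the lowest.

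**Figure D3:**
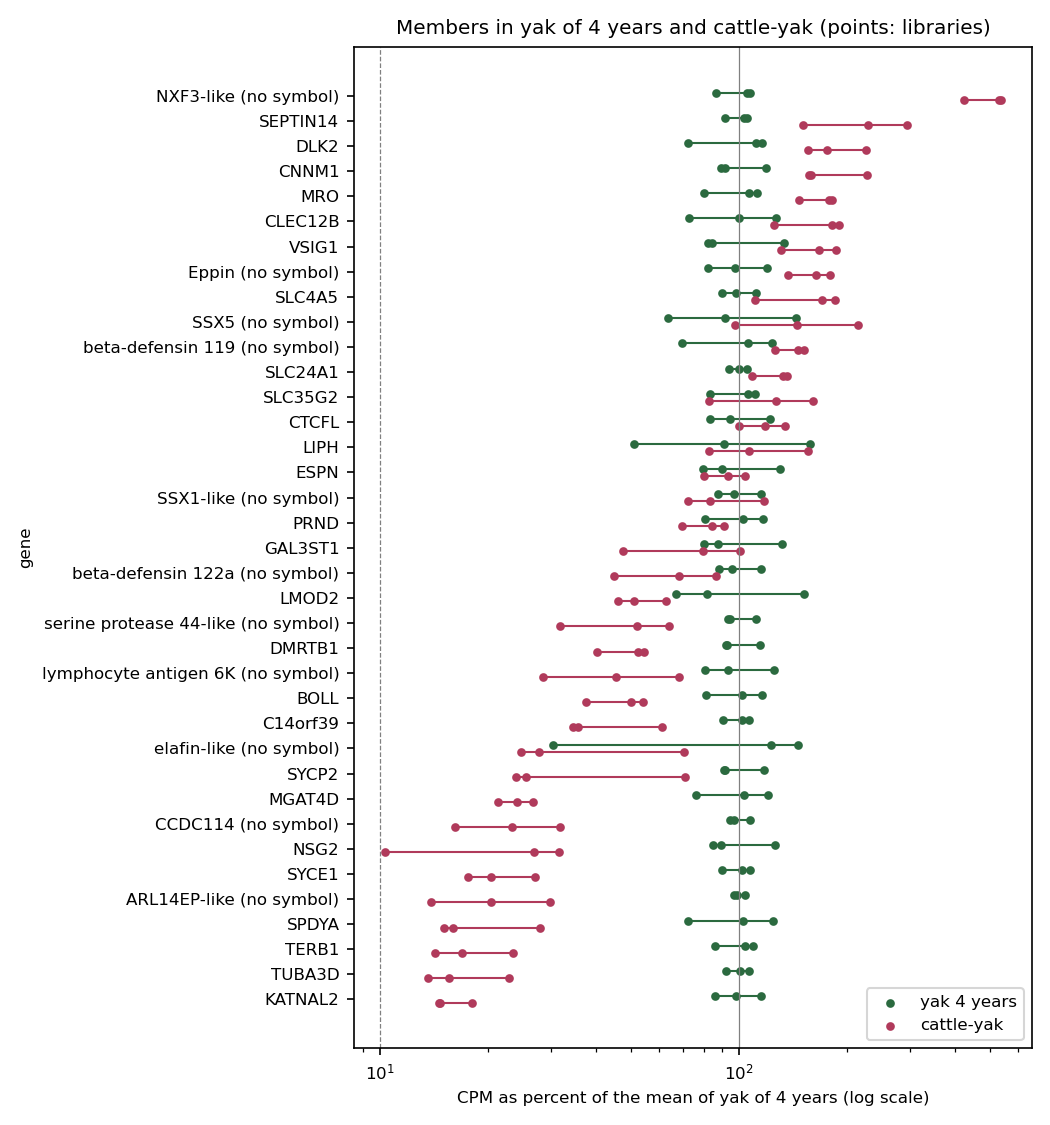
CPM of 37 of the 38 genes in percent of the gene's mean in yak of 4 years (log scale), for the 3 libraries of yak of 4 years (green) and of cattle–yak (red). Points are libraries and lines span their range, the dashed line marks the 10% limit of the choice, and genes are ordered by the ratio of the means, from KATNAL2 at 0.158 to NXF3-like at 4.99.

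Of the genes still translated, 5 belonged to the meiotic chromosome axis and telomeres. All 5 were lower in every cattle–yak library than in every yak library of 4 years, at 0.183 to 0.437 times the yak mean. In the same way, 33.3% of all genes with a count lay below. A list of 27 synaptonemal complex and recombination genes, 3 of them among the 5, summed to 1908, 1151 and 1433 CPM in cattle–yak. In yak of 4 years it summed to 1986 to 2233 CPM, so the ratios of the 5 do not stand for that list. A list of 10 genes for meiotic cohesin and telomere attachment summed to 511 to 775 CPM in cattle–yak and 1226 to 1400 CPM in yak. SYCP2 (ENSBGRG00000024249) encodes a protein of the axial elements, the protein cores along which each chromosome is folded. Its translation level, in FPKM (counts per kilobase of effective length and per 1000000 counts of the library), was 0.03, 0.15 and 0.05 at 6 months, 0.36, 22.4 and 2.36 at 18 months, 26.5, 26.9 and 34.4 at 4 years and 20.6, 7.04 and 7.61 in cattle–yak. One hybrid library thus came close to yak, at 70.7% of the yak mean, while the others were at 23.9% and 25.5%. SYCE1 (ENSBGRG00000018058) and C14orf39 (ENSBGRG00000008306), known as SIX6OS1, encode proteins of the central element, which closes the complex between paired chromosomes. For SYCE1, values of 0.5, 0.97 and 0.26 FPKM at 6 months and 2.48, 64.2 and 5.98 FPKM at 18 months preceded 112, 98.6 and 118 FPKM at 4 years, and the hybrids had 29.6, 19.4 and 22.5 FPKM. The hybrid libraries of SYCE1 lay close together, at 0.217 times the yak mean. For C14orf39 the levels were 0.05, 0.04 and 0 FPKM at 6 months, 0.34, 13.8 and 2.22 FPKM at 18 months, 19.97, 19.01 and 16.8 FPKM at 4 years and 11.2, 6.33 and 6.6 FPKM in cattle–yak. It kept the largest share of the 5, 0.437 times the yak mean, and its 6-month libraries held 2, 2 and 0 counts.

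TERB1 (ENSBGRG00000026906) is part of the complex that attaches telomeres to the nuclear envelope, and SPDYA (ENSBGRG00000006545) activates CDK2 at these telomeres. TERB1 was at 0.1, 0.12 and 0.07 FPKM at 6 months, 0.64, 14.2 and 1.88 FPKM at 18 months, 17.9, 21.6 and 22.8 FPKM at 4 years and 4.9, 3.53 and 2.97 FPKM in cattle–yak. SPDYA was at 0.04, 0.06 and 0.03 FPKM at 6 months, 0.09, 22.2 and 1.14 FPKM at 18 months, 30.1, 21.2 and 36.6 FPKM at 4 years and 8.21, 4.44 and 4.7 FPKM in cattle–yak. Both were below every yak library of 4 years in every hybrid, at 0.183 and 0.197 times the yak mean. At 18 months the 5 genes reached 58.6% to 77.6% of the 4-year mean in replicate 2, 3.88% to 11.99% in replicate 3 and 0.296% to 3.105% in replicate 1.

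Among the 6 genes for nucleic acid binding proteins, hybrid levels spread from 0.472 to 4.99 times the yak mean, and 18-month replicate 3 reached 19.3% to 58.6% of the 4-year mean. DMRTB1 (ENSBGRG00000002091), also called DMRT6, is a transcription factor at the change from spermatogonial divisions to meiosis. Its level was 0.09, 0.3 and 0.04 FPKM at 6 months, 3.59, 27.8 and 18.2 FPKM at 18 months, 35.5, 28.6 and 28.8 FPKM at 4 years and 16.3, 12.5 and 16.8 FPKM in cattle–yak. At 18 months it stood at 11.6, 89.7 and 58.6% of its 4-year mean in replicates 1 to 3, which was the highest of the 38 genes in each library, and every hybrid library was below every yak library of 4 years. CTCFL (ENSBGRG00000009589), the germ cell paralogue of the chromatin insulator protein CTCF, was at 0, 0.11 and 0.1 FPKM at 6 months and 0.76, 17.7 and 9.84 FPKM at 18 months. It reached 19.4, 24.9 and 16.98 FPKM at 4 years and 27.5, 20.6 and 24.3 FPKM in cattle–yak. The adult groups overlapped for CTCFL, with a ratio of the means of 1.18.

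A gene described as SSX1-like (ENSBGRG00000016947), of a family of nuclear proteins expressed in testis and tumours, was at 0.15, 0.21 and 0.17 FPKM at 6 months and 1.83, 32.4 and 14.9 FPKM at 18 months. It had 44.7, 37.5 and 34.1 FPKM at 4 years and 45.5, 28.02 and 32.3 FPKM in cattle–yak, with overlapping adult groups. SSX genes are near-identical copies between which reads could be split, so the levels of SSX1-like and of SSX5 (1.53 times the yak mean) are uncertain. A gene described as nuclear RNA export factor 3-like (ENSBGRG00000018300), from the family of proteins that carry RNA out of the nucleus, was the one of the 38 that exceeded yak the most. Its libraries had 0, 0.07 and 0.06 FPKM at 6 months, 0.93, 23.04 and 7.69 FPKM at 18 months, 42.8, 41.96 and 34.4 FPKM at 4 years and 214, 169 and 212 FPKM in cattle–yak. Hybrid libraries were at 539, 425 and 533% of the yak mean, a ratio of 4.99, and the family has related copies, so this value is uncertain as well. BOLL, an RNA-binding protein of the DAZ family, was at 0.472 times the yak mean.

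Of the 6 genes for cytoskeletal proteins, 4 lay below yak in every hybrid library and SEPTIN14 lay above. TUBA3D (ENSBGRG00000013042), an alpha-tubulin of testis, was the gene with the highest CPM of the 38 at 4 years and was at 5.12, 12.6 and 3.65 FPKM at 6 months and 48.3, 947 and 187 FPKM at 18 months. It reached 1580.2, 1669 and 1436 FPKM at 4 years and 357, 213 and 244 FPKM in cattle–yak, 0.174 times the yak mean, with all hybrids below all yaks. Alpha-tubulin genes are nearly identical in sequence, so its level is uncertain. SEPTIN14 (ENSBGRG00000017961), a GTP-binding septin of testis, was at 0.09, 0.13 and 0.13 FPKM at 6 months and 0.41, 39.9 and 2.89 FPKM at 18 months. Yak of 4 years had 68.8, 61.3 and 70.2 FPKM and cattle–yak 199, 102 and 155 FPKM, so that every hybrid exceeded every yak although the hybrids differed among themselves.

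ESPN (ENSBGRG00000016468) encodes espin, which bundles actin filaments, among other places in the junctions between Sertoli cells and spermatids. Its level was 0.33, 0.35 and 0.2 FPKM at 6 months, 0.54, 112 and 12.04 FPKM at 18 months, 199, 287 and 176 FPKM at 4 years and 206, 177 and 229 FPKM in cattle–yak. The adult groups overlapped, with a ratio of the means of 0.924. KATNAL2, a katanin-like protein that acts on microtubules, had the lowest ratio of the 38, 0.158. CCDC114, which docks outer dynein arms in cilia, was at 0.238 and the actin-binding LMOD2 at 0.533 times the yak mean, and all hybrids were below all yaks for these 3 genes.

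The genes for secreted or surface-anchored proteins included the 2 with the highest FPKM of the 38 at 4 years, beta-defensin 119 and Eppin. TUBA3D ranked 3, and the secreted group also held low levels, such as a mean of 20 FPKM for LIPH. A gene described as beta-defensin 119 (ENSBGRG00000015536), from the family of small antimicrobial peptides of the male tract, ranked first in FPKM at 4 years. It was at 0, 0.19 and 0.12 FPKM at 6 months, 27.2, 1942 and 740.04 FPKM at 18 months, 4676, 5463 and 3050.1 FPKM at 4 years and 5549.6, 6671 and 6439.8 FPKM in cattle–yak. All hybrids were above all yaks, at 1.42 times the yak mean, and the 6-month libraries held 0, 2 and 1 counts. Beta-defensin 122a (ENSBGRG00000015690) differed from it at 18 months, with 0, 531 and 0.74 FPKM after 0.12, 0 and 0.1 FPKM at 6 months. It had 889, 1076 and 818 FPKM at 4 years and 833, 649 and 449 FPKM in cattle–yak. Every hybrid library was below every yak library in CPM, while in FPKM the highest hybrid lay within the yak range. With an 18-month level in replicate 3 of 0.0824% of its 4-year mean, it was the lowest of the 38 genes there. Defensin genes are related copies, and the levels of both are uncertain to the extent that reads were shared.

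Eppin (ENSBGRG00000016977), a protease inhibitor that coats sperm, was made at 2.16, 3.87 and 2.04 FPKM at 6 months and 9.65, 897 and 151 FPKM at 18 months. Adult levels were 1971, 2426 and 1667 FPKM in yak and 3348, 2788 and 3649.9 FPKM in cattle–yak, and every hybrid exceeded every yak, at 1.61 times the mean. A gene described as elafin-like (ENSBGRG00000010790), after an inhibitor of elastase, was at 2.82, 5.11 and 5.34 FPKM at 6 months and 12.9, 121 and 70.3 FPKM at 18 months. It varied among the yaks of 4 years, with 933, 782 and 187 FPKM, and among the hybrids, with 158, 150.1 and 436 FPKM, and the groups overlapped. PRND (ENSBGRG00000006063), the prion-like protein Doppel that male fertility in mice requires, was at 2.33, 1.76 and 3.62 FPKM at 6 months and 4.53, 412 and 122 FPKM at 18 months. It was at 687, 996 and 875 FPKM at 4 years and 775, 721 and 592 FPKM in cattle–yak, with overlapping adult groups.

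Lymphocyte antigen 6K (ENSBGRG00000004382), a lipid-anchored protein of germ cells, was at 0.46, 1.51 and 0.39 FPKM at 6 months and 3.61, 166 and 24.5 FPKM at 18 months. Adult yak had 159, 185 and 248 FPKM and cattle–yak 135, 56.3 and 89.8 FPKM, all hybrids below all yaks. LIPH (ENSBGRG00000002721), a lipase that makes lysophosphatidic acid, was late, with 0.06, 0.02 and 0.08 FPKM at 6 months and 0.27, 4.98 and 0.24 FPKM at 18 months. It then varied widely, with 18.2, 31.5 and 10.3 FPKM at 4 years and 31.3, 21.3 and 16.6 FPKM in cattle–yak, and the groups overlapped. A serine protease 44-like gene was at 0.493 times the yak mean, with all hybrids below all yaks.

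Among the 5 genes for membrane receptors and adhesion proteins, hybrid levels ran from 0.229 to 1.86 times the yak mean. VSIG1 (ENSBGRG00000020722), an adhesion protein of the immunoglobulin family, was at 1.51, 0.84 and 2.07 FPKM at 6 months, 51.5, 379.8 and 246 FPKM at 18 months, 619, 984 and 604 FPKM at 4 years and 1371, 968 and 1232 FPKM in cattle–yak. It was early at 18 months, at 7.001% of its 4-year mean in replicate 1 and 33.4% in replicate 3, and the lowest hybrid lay just under the highest yak. CLEC12B (ENSBGRG00000019417), an inhibitory lectin receptor, was at 0.43, 1.07 and 0.5 FPKM at 6 months and 4.07, 75.04 and 14.97 FPKM at 18 months. It had 115, 202 and 159 FPKM at 4 years and 199, 302 and 289 FPKM in cattle–yak, where 1 hybrid fell within the yak range. DLK2 (ENSBGRG00000012938), a relative of the Notch ligands, was at 0.03, 0.02 and 0.03 FPKM at 6 months, 0.14, 12.2 and 1.62 FPKM at 18 months, 13.4, 21.4 and 20.7 FPKM at 4 years and 32.6, 28.8 and 41.9 FPKM in cattle–yak. All hybrids exceeded all yaks for DLK2, at 1.86 times the mean.

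NSG2 (ENSBGRG00000012654), an endosomal protein of neurons, was at 0.15, 0.21 and 0.23 FPKM at 6 months and 2.2, 30.02 and 5.85 FPKM at 18 months. At 4 years yak had 63.5, 42.2 and 44.6 FPKM and cattle–yak 15.8, 5.18 and 13.5 FPKM, all hybrids below all yaks.

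All 4 genes for transporters had a hybrid mean above that of yak, from 1.24 to 1.81 times. SLC24A1, an exchanger of sodium for calcium and potassium, and CNNM1, of the cyclin M family of metal transport proteins, were above yak in every hybrid library, at 1.26 and 1.81 times the mean. SLC4A5, a cotransporter of sodium and bicarbonate, and SLC35G2 overlapped with yak at 1.55 and 1.24 times.

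MGAT4D (ENSBGRG00000022069), a testis member of a family of glycosyltransferases, was at 0.6, 0.47 and 0.56 FPKM at 6 months and 1.44, 76.9 and 16.6 FPKM at 18 months. It had 133, 98.6 and 153 FPKM at 4 years and 41.8, 34.8 and 38.3 FPKM in cattle–yak, with all hybrids below all yaks. GAL3ST1, which sulfates the germ cell glycolipid seminolipid, overlapped with yak at 0.759 times the mean. MRO (ENSBGRG00000024247), or maestro, was at 0.85, 0.97 and 0.71 FPKM at 6 months, 1.19, 77.7 and 13.2 FPKM at 18 months, 176, 166 and 125 FPKM at 4 years and 278, 229 and 283 FPKM in cattle–yak, where every library was above every yak library. A gene described as ARL14 effector protein-like (ENSBGRG00000012572) was at 0.16, 0.83 and 0.07 FPKM at 6 months and 1.56, 186 and 2.6 FPKM at 18 months. It had 354, 330.4 and 336 FPKM at 4 years and 101, 69.3 and 47.3 FPKM in cattle–yak, all below yak.

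The 8 genes above yak in every hybrid library and the 17 below it overlapped in their 18-month levels. In replicate 3 the 8 genes had a median of 8.99% of the 4-year mean (4.36% to 19.3%) and the 17 genes had a median of 10.3% (0.0824% to 58.6%). In replicate 1 the medians were 0.748% and 1.85%, and in replicate 2 they were 49.0% and 68.3%. These medians describe single libraries and carry no test.

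The limits of the choice cut through a continuous range. At the 10% limit in cattle–yak, the lowest hybrid library was at 10.3% for NSG2 and 13.7% for TUBA3D on the inner side. On the outer side it was at 9.68% for SYNGR4, 8.64% for MEIOC, which extends meiotic prophase, and 8.12% for ENSBGRG00000013300. At the 1% limit at 6 months, the highest library was at 0.975% for SLC35G2 on the inner side and at 1.01% for a serine protease 42 gene and 1.02% for SPATA22, a recombination protein, on the outer side. The lowest 4-year means were 21.8 CPM for DLK2 and 23.4 CPM for SLC35G2.

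The lost genes with a symbol and the highest 4-year level include genes of spermatids, and in replicate 3 of 18 months all 6 were below 2% of the 4-year mean. TNP1, the transition protein that replaces histones in spermatids, was at 0, 1185 and 1.92 CPM at 18 months, 1935, 1378 and 2000.3 CPM at 4 years and 4.64, 0.5697 and 0 CPM in cattle–yak. PDILT, a testis chaperone for sperm surface proteins, was at 0.04201, 482 and 1.26 CPM at 18 months, 1087, 1169 and 920.3 CPM at 4 years and 2.39, 0.647 and 0.07805 CPM in cattle–yak. The actin-like ACTL7B was at 0.04201, 473 and 1.22 CPM at 18 months, 1019, 1111 and 781 CPM at 4 years and 5.42, 1.86 and 0.05203 CPM in cattle–yak. In all 3 the residue in cattle–yak was highest in library 1. PRSS37, IRGC and TRIM36 were at 0.185%, 0.175% and 1.21% of their 4-year mean in replicate 3 of 18 months.

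Lists of known testis genes were matched by symbol, so the 11 of the 38 genes without a symbol could not be found on them. The lists that held any of the others were lists of meiotic prophase, spermatocytes and late regulators. Of 27 synaptonemal complex and recombination genes in the tables, 3 were still translated, 0 were lost or between the limits, 21 were at 1% or more of the 4-year mean in at least 1 library of 6 months and 3 were below 20 CPM at 4 years. Of 10 genes for meiotic cohesin and telomere attachment 2 were still translated and 1 lay between the limits, and of 17 transcription regulators of late germ cells 1 was still translated, 4 lay between the limits and 12 were at 1% or more at 6 months. In contrast, 7 of 12 round spermatid markers and 5 of 7 elongating spermatid markers were lost and 0 were still translated. Of 51 axoneme genes with a symbol 22 lay between the limits, and 0 were still translated or lost. CCDC114 is on the axoneme list and among the 38 genes, but it carries no symbol and was not counted. Of the 38 genes, 6 were found on these lists by symbol, and the lists were drawn up with results of these data known.

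**Figure D4:**
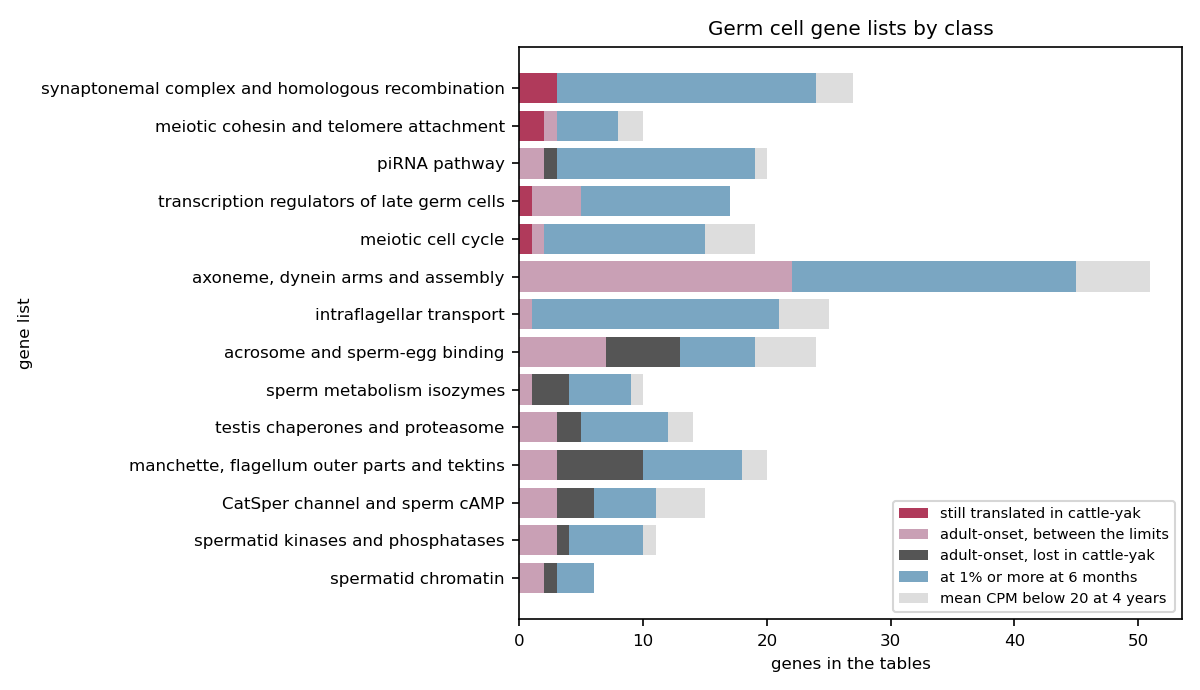
Number of genes of each of 14 germ cell lists in the tables, split into genes still translated in cattle–yak, adult-onset genes between the limits, lost genes, genes at 1% or more of the 4-year mean at 6 months, and genes below 20 CPM at 4 years. Genes were matched by symbol, so CCDC114 of the axoneme list, still translated but without a symbol, is not counted. The genes still translated that were matched occur in the lists of the synaptonemal complex, cohesin and telomeres, late regulators and meiotic cell cycle, the lost genes mainly in those of sperm structures.

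For the synaptonemal complex and recombination list, edgeR called 0 of 27 genes in either direction between 6 and 18 months, with an unadjusted p below 0.05 for 21, all higher at 18 months, and DESeq2 called 20 higher. The median log2 fold change of the list was 3.23 against 0.05 for all genes tested. Of all 14874 genes tested, 2125 were higher at 18 months with an unadjusted p below 0.05 by edgeR, and DESeq2 called 7.13% higher. For cohesin and telomere attachment edgeR called 0 of the 7 genes tested, with 6 unadjusted, DESeq2 called 4, and the median was 2.86. For the late regulators edgeR called 0 of 15, with 10 unadjusted, DESeq2 called 5, and the median was 2.85. Without replicate 2 of 18 months the 3 medians were 1.91, 2.36 and 0.71, and edgeR called 0, 0 and 1 gene higher. The median of all genes tested was then −0.01, and edgeR called 0.226% of them higher.

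None of the lists for Sertoli, Leydig, peritubular myoid and endothelial cells, macrophages, red blood cells and duct epithelium held any of the 38 genes, but the levels of most of them differed between the groups. The 8 Sertoli markers, of which 7 were at 1% or more at 6 months and 1 was below 20 CPM at 4 years, summed to 7363 to 9039 CPM at 6 months, 2469 to 7404 CPM at 18 months, 842 to 1188 CPM at 4 years and 1686 to 1975 CPM in cattle–yak. INHA alone was at 796 to 1057 CPM of this in cattle–yak, and the other 7 markers summed to 885 to 935, 459 to 772, 276 to 406 and 846 to 918 CPM in the same order. The 8 spermatogonial markers summed to 344 to 475, 774 to 1736, 641 to 825 and 1410 to 1469 CPM. The 12 markers of early spermatocytes summed to 128 to 191, 211 to 1031, 1283 to 1451 and 545 to 964 CPM, and the 15 of pachytene and later spermatocytes to 310 to 548, 746 to 7405, 11420 to 13258 and 862 to 1262 CPM. Markers of Leydig cells (3 genes) and of peritubular myoid cells (5 genes) summed to 108 to 260 and 281 to 282 CPM in yak of 4 years and to 799 to 1339 and 1014 to 1669 CPM in cattle–yak. The sum for early spermatocytes was thus lower in every hybrid than in every adult yak, as were the 5 meiotic genes above, and so was the sum without SYCP2, at 521 to 895 against 1194 to 1336 CPM. The sums for Sertoli, Leydig and myoid cells and for spermatogonia were higher in every hybrid than in every adult yak, as were the 8 genes that exceeded yak. Their course with age differed from that of the 8 genes, which were below 1% of the 4-year mean at 6 months. At that age the Sertoli and Leydig sums, 7363 to 9039 and 1987 to 3104 CPM, were above those of 4 years. The myoid and spermatogonial sums were 170 to 278 and 344 to 475 CPM at 6 months. Of the markers summed in these 6 lists, MEIOC alone was at 0 in every library of a group, that of 6 months. The 6 markers of rete testis and duct epithelium summed to 17.3 to 30.6 CPM at 6 months, 78.9, 364 and 92.7 CPM in the 3 libraries of 18 months, 479 to 580.2 CPM at 4 years and 233 to 312 CPM in cattle–yak. This sum was thus lowest at 6 months and among the 18-month libraries highest in replicate 2, as was the sum of the 38 genes, and it was lower in every hybrid than in every adult yak. Nearly all of it at 4 years was EPCAM, a surface protein of epithelia and germ cells, at 471 to 574 CPM, against 193 to 269.7 CPM in cattle–yak, whereas CDH16, CRISP1 and AQP9 were below 1 CPM in every library. Markers of endothelial cells (64.5 to 85.9 CPM at 4 years, 39.2 to 56.8 CPM in cattle–yak) and of macrophages (245 to 390 and 185 to 236 CPM) were lower in every hybrid than in every adult yak, and those of red blood cells were at or near 0 in every library. The part of these cell types in the levels of the 38 genes was not tested.

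By the annotation deposited with the tables, 4 of 33 annotated genes (12.1%) belonged to the extracellular region, against 1.32% of 6644 annotated genes of at least 20 CPM at 4 years and 1.31% of 153 annotated lost genes. For integral membrane components it was 6 of 33 (18.2%), against 5.87% of all and 5.88% of the lost genes, and for the nucleus 6 of 33, against 20.8% and 9.15%. The median effective length was 1176 bases for the 38 genes, 968 for the lost genes, 1598 for the genes between the limits and 1412 for all 7489. These shares describe the sets and were not tested.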

How the data were processed

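Ribo-seq libraries of testis from 3 animals in each of 4 groups were used. The authors cleaned the reads with fastp, used Bowtie2 to discard rRNA and BLAST to discard tRNA and small RNA, kept lengths of 20 to 40 bases, aligned these to the yak genome (BosGru 3.0) with STAR and obtained expected counts per ORF with RSEM. The counts were deposited as raw whole numbers, beside FPKM made by the authors. The tables also hold the authors' fold changes, p-values and FDR, which were not used. The 12 libraries occur in several tables with identical values.

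Each library was taken as 1 animal. CPM divides a count by the library total. Yak of 18 months were compared with those of 6 months and of 4 years with edgeR's quasi-likelihood test (R 4.3.3, edgeR 4.0.16) after filterByExpr and TMM, with Benjamini-Hochberg adjustment over all genes tested. Called genes passed an adjusted p of 0.05 and changed by at least 1 on the log2 scale. DESeq2 1.42.0, other scalings, filters and limits, 1 fit of all libraries, the replicate block and each library left out were alternatives. Tables were made in Python 3.11.15 (pandas 2.3.3).

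The genes, lists and tests were chosen with earlier results of these data known. Genes named by rule were the 15 with the highest 4-year CPM, the 3 highest and 3 lowest ratios of 18 months to 4 years, the 3 highest ratios of cattle–yak to yak, the 3 on each side of the 10% limit, those on a list, and the 6 lost genes with a symbol and the highest level. The remaining genes are named to account for the others, except 1 of the 38 that counts in all totals and is not reported here. Libraries of a group differed beyond counting error (chi-square per degree of freedom 26.4 to 336), so counting limits cover counting error only. Promoter letters were not searched, since promoter sequences were not used here.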

Additional observations from a re-analysis of the deposited data

How the results depend on the processing

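With 3 libraries a group and unlike libraries at 18 months, the numbers of calls depended on the tool and on single libraries, and the cause was not tested. The number of genes still translated was 22 at a limit of 50 CPM, 20 and 68 at 6-month limits of 0.5% and 2%, and 36 to 54 with each library left out. The lost genes numbered 177 at 50 CPM and 276 to 337 with each library left out. The summed level of the 38 genes in cattle–yak was 7104 CPM after TMM scaling, against 7885 CPM, while that in yak of 4 years was 7518 CPM, against 8556 CPM.

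From 6 to 18 months edgeR called 3 genes higher and 7 lower, with DESeq2 1061 and 807, with library totals 104 and 49, without the filter 1 and 2, and with all 12 libraries 1827 and 828. Of the 38 genes DESeq2 called 29, library totals 4 and all 12 libraries 37, and of the lost genes all 12 libraries called 163. From 18 months to 4 years edgeR called 0 higher and 6 lower, with DESeq2 2092 and 2291 and with all 12 libraries 1121 and 2365, and of the 38 genes 9 and 5.

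With each library left out, calls from 6 to 18 months ranged from 0 to 1344 higher and 0 to 1249 lower, 0 to 35 among the 38 genes and 0 to 47 among the lost genes. The highest values were those without replicate 1 of 18 months. From 18 months to 4 years they ranged from 0 to 4277 higher and 0 to 3033 lower, 0 to 36 among the 38 genes and 0 to 286 among the lost genes, with the highest values without replicate 2 of 18 months. The median mean level at 18 months was 23.6% of the 4-year mean for the 38 genes (6.04% to 34.4%) and 19.0% for the lost genes (0.0827% to 28.6%), the lowest without replicate 2.

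Replicate numbers did not pair the samples (correlations of deviations 0.022 to 0.096 and −0.135 to −0.0016). With the replicate block, calls from 6 to 18 months were 235 higher and 303 lower, 15 among the 38 genes and 1 among the lost genes, and from 18 months to 4 years 0 were lower. Among those of the 38 genes that were tested, every log2 fold change stayed above 0 in both comparisons under every alternative. The choice asked for low 6-month and high 4-year levels, and the filter keeps genes low at 6 months by their 18-month counts. These signs were thus close to fixed in advance and carry no weight of their own. Of the 19 lost genes tested from 6 to 18 months, 16 were above 0 without replicate 2 of 18 months (lowest −0.80), against 19 of 19 with all libraries.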

Other observations

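The 6-month limit left out 30 genes that otherwise met the choice and were at 1% to 2% of their 4-year mean at 6 months. They were looked at, and those named were picked, after the data were seen, and their levels are a description. Most of the 30 had a lower mean in cattle–yak than in yak of 4 years, and the 4 named first are among the few that had a higher one. A claudin-11 gene, which encodes a tight junction protein of Sertoli cells, was at 6.04, 12.1 and 3.09 CPM at 6 months and 49.3, 376 and 492 CPM at 18 months. It reached 546, 864 and 468 CPM at 4 years and 929, 1065 and 1040.4 CPM in cattle–yak. Replicate 3 of 18 months was above replicate 2 for this gene, unlike all 38 genes of the choice, and all hybrids were above all yaks.

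MAGEA10, of a family of proteins expressed in germ cells and tumours, was at 2.35, 46.9 and 5.58 CPM at 18 months, 87.9, 78.4 and 84.9 CPM at 4 years and 362, 313 and 313 CPM in cattle–yak, 3.93 times the yak mean. A beta-defensin 112 gene was at 11.01, 25.2 and 36.1 CPM at 18 months, 33.7, 38.1 and 31.6 CPM at 4 years and 80.98, 64.3 and 76.2 CPM in cattle–yak. DEFB123 was at 2.96 times the yak mean, and all 3 genes were above yak in every hybrid library.

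Of the 30, 4 genes known from meiosis were picked for their lower levels in the hybrids, and no list was counted. STAG3, a cohesin subunit of meiotic chromosomes, was at 13.02, 174 and 64.01 CPM at 18 months, 233, 283 and 265 CPM at 4 years and 142, 88.2 and 86.8 CPM in cattle–yak. MEIOB and SPATA22, partners in meiotic recombination, were at 0.488 and 0.545 times the yak mean, and ZNF541, a regulator of late meiotic prophase, at 0.286. Other genes of the 30 were lower still, among them DDX25, TEX14 and PSMA8 at 0.124, 0.129 and 0.174 times the yak mean.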
